A study of Mus musculus with 9 samples.

Results

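The Fc receptor genes described here are the 7 rows of the count table that carry the symbols Fcer1a, Ms4a2, Fcer1g, Fcgr1, Fcgr2b, Fcgr3 and Fcgr4, out of 24421 symbols. All 7 passed the filter on low counts, which kept 13270 genes. They were measured by bulk RNA sequencing in mouse bone marrow cells of C57BL/6 background from which lineage-positive cells had been removed with an enrichment kit, and which had then been expanded for 5 days in interleukin 3, interleukin 6 and stem cell factor into myeloid blast-like cells. There were 3 groups of 3 libraries: wild-type (WT) cells given vehicle, Tet2-/-Flt3ITD cells given vehicle, and Tet2-/-Flt3ITD cells given SHP099. Both treatments of the Tet2-/-Flt3ITD cells lasted 24 h. Tet2 encodes a DNA demethylase, and Flt3ITD is a duplicated stretch that activates the receptor kinase FLT3. SHP099 blocks SHP2, the phosphatase encoded by Ptpn11, at an allosteric site. The Tet2-/-Flt3ITD cells are called mutant below. Each of the 3 mutant cultures came from 1 mouse, and no WT cells were given SHP099. The sources used here do not give age, dose, the treatment time of the WT cells or the cells in which Tet2 was deleted. All cells were grown in the same 3 cytokines.

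Fc receptors bind the constant part of antibodies and tie antigen recognition to the effector functions of myeloid cells. FcεRI, the high-affinity IgE receptor of mast cells and basophils, is built from an alpha chain that holds IgE (Fcer1a), a signal-amplifying beta chain (Ms4a2) and the common gamma chain (Fcer1g), whose activation motifs (ITAMs) recruit the kinase SYK. The gamma chain is also the signalling partner of the activating mouse IgG receptors FcγRI (Fcgr1), FcγRIII (Fcgr3) and FcγRIV (Fcgr4), whereas FcγRIIB (Fcgr2b) carries an inhibitory motif (ITIM) that recruits phosphatases.

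Fcer1a and Ms4a2 are the members whose products are limited in the mouse mainly to mast cells and basophils, so the 250 bases before their RefSeq start sites (GRCm38.p6) are shown. Capitals mark each AGATAA on either strand, a form of the site bound by GATA factors, and TTATCT is AGATAA read on the opposite strand. The Fcer1a sequence is chr1:173227230-173227479 and the Ms4a2 sequence is chr19:11623720-11623969, both on the minus strand.
Fcer1a: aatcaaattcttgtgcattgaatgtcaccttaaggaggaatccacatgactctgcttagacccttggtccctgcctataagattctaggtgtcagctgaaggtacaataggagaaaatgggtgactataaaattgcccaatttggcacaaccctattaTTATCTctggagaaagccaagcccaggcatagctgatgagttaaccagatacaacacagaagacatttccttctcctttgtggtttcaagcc
Ms4a2: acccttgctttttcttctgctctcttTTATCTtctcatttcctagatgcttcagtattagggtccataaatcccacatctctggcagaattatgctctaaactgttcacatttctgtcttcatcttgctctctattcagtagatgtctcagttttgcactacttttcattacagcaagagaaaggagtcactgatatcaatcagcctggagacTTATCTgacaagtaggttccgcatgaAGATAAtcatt
Fcer1a held 1 AGATAA, on the opposite strand at 92 to 87 bases before the start. Ms4a2 held 3, of which the one nearest the start lay on the gene strand at 11 to 6 bases before it. AGATAA was in 9.99% of 32851 RefSeq promoter windows of this length and in none of the other 5 members' windows. TGATAA, another GATA form, was in 7.94% of windows and in no member's.
GAGGAA, a core bound by ETS factors such as PU.1, was in the windows of Fcer1a, Fcgr1, Fcgr3 and Fcgr4 and in 23.3% of all windows. TTCNNNGAA, the STAT form, was in the Fcgr1 window alone among the members and in 7.02% of all windows. Both strands were searched for each motif, and a match is a run of letters and not a shown binding site.

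On GRCm38, 5 of the 7 genes lie on chromosome 1: Fcgr2b (170958617 to 170976547), Fcgr4 (171018920 to 171029761), Fcgr3 (171051174 to 171064935), Fcer1g (171229572 to 171234365) and Fcer1a (173221284 to 173227214). Fcgr1 is on chromosome 3 (96282909 to 96293969) and Ms4a2 is on chromosome 19 (11615523 to 11623719). Counts cover exons of the whole gene. Fcgr2b and Fcgr3 transcripts share 166 of their windows of 50 bases, which are 4.75% of the Fcgr2b windows and 12.8% of the Fcgr3 windows, so reads can be split between them and their values are uncertain to that extent. No other pair of members shares such a window. Exons of Fcgr2b also overlap an antisense gene model, and without a stated strand setting reads of the 2 cannot be told apart.

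Total counts per library ran from 27242168 to 45810089. Tet2 was 33.2 ± 1.48 CPM (SD, n = 3; CPM is a count scaled to the effective library size) in WT vehicle cells, 15.5 ± 1.30 in mutant vehicle cells and 12.4 ± 1.28 in SHP099-treated cells. The ribosomal RNA gene Rn45s took 0.705, 0.465 and 0.377% of the counts in WT replicates 1, 2 and 3. It took 0.357, 0.288 and 0.276% in mutant vehicle cells and 0.734, 0.658 and 4.33% in SHP099-treated cells, in the same order. All SHP099 libraries were thus above all mutant vehicle libraries, and the part of this difference in the SHP099 results was not tested. Groups were compared with edgeR's quasi-likelihood test over all 9 libraries, with adjusted p under 0.05 as the threshold. The error given with a log2 fold change is its standard error.

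Within a group, levels of the genes were set side by side as CPM per kilobase of transcript. The order was led in all 3 groups by the shared gamma chain Fcer1g, at 320 ± 31.2 CPM per kilobase in WT vehicle cells (SD, n = 3), 229 ± 41.0 in mutant vehicle cells and 346 ± 29.3 in SHP099-treated cells. Fcgr3 came next at 197 ± 13.8, 170 ± 19.8 and 197 ± 22.4 CPM per kilobase in the same order of groups, and its libraries overlapped those of Fcer1g in mutant vehicle cells. A middle tier held Ms4a2, Fcgr2b and Fcer1a.
In WT cells Ms4a2 (47.6 ± 6.46 CPM per kilobase) and Fcgr2b (42.3 ± 4.45) overlapped, and Fcer1a (29.0 ± 7.45) lay below both. In mutant vehicle cells Fcgr2b (41.4 ± 3.71) and Ms4a2 (35.7 ± 4.96) again overlapped, with Fcer1a (20.6 ± 3.39) below them. In SHP099-treated cells Ms4a2 (51.9 ± 5.62), Fcer1a (51.5 ± 7.69) and Fcgr2b (47.7 ± 2.23) overlapped one another in that order. Fcgr1 and Fcgr4 were lowest in every group, between 2.94 and 6.69 CPM per kilobase on average.
The WT cells had Fcgr4 above Fcgr1 without overlap (6.69 ± 1.26 against 2.94 ± 0.86 CPM per kilobase). In mutant cells the libraries of these genes overlapped, at 4.96 ± 0.57 and 5.15 ± 1.07 with vehicle and 6.26 ± 0.15 and 6.01 ± 0.71 with SHP099.

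**Figure D1:**
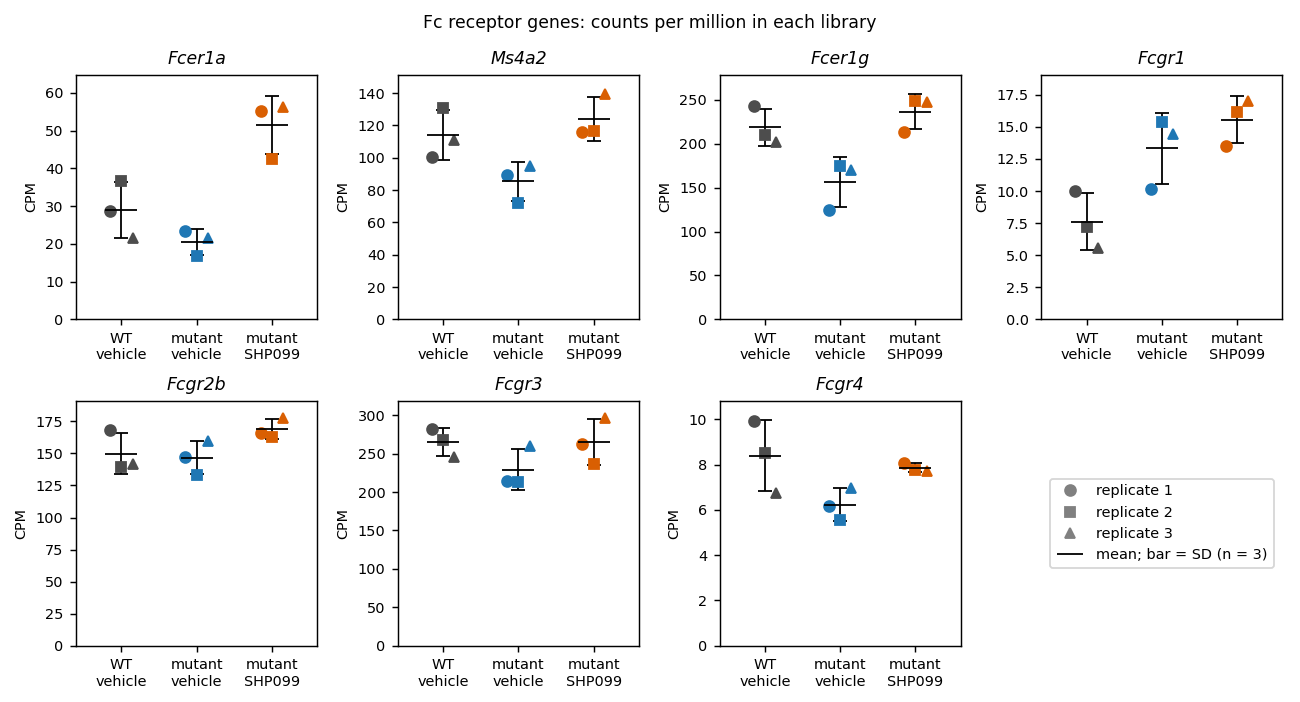
Level of each Fc receptor gene in CPM (y axis, from 0, with its own scale in each panel) in the 3 libraries of WT vehicle, mutant vehicle and mutant SHP099 cells. Points are libraries, marked by replicate number, the horizontal line is the mean and the bar the SD. The SHP099 libraries of Fcer1a, from 42.5 to 56.3 CPM, lie above all other libraries, and the WT libraries of Fcgr1, from 5.60 to 10 CPM, lie below the mutant ones.

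SHP099 raised the genes of all 3 chains of the IgE receptor in mutant cells. The alpha chain gene Fcer1a rose 2.51-fold, the common gamma chain gene Fcer1g 1.51-fold and the beta chain gene Ms4a2 1.45-fold. These were the 3 of 7 members called higher, where 8.81% of all tested genes were called higher. In this fit, which had no block for culture, none of the 4 IgG receptor genes was called. With 2 kinds of block for mutant culture, given below, 5 and 7 of 7 members were called higher, against 12.5% and 21.5% of tested genes. In the fit without a block no member was called lower, against 13% of tested genes. No member was lower at an unadjusted p under 0.05 either, nor by DESeq2. The fitted log2 change was above 0 for 7 of 7 members, with a median of 0.34 beside 0.00 over all tested genes. In bulk RNA of this kind fewer cells of a type and less RNA per cell cannot be told apart.

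Fcer1a, which binds the Fc part of IgE, was at 23.3, 16.7 and 21.5 CPM in mutant vehicle replicates 1, 2 and 3 and at 55.2, 42.5 and 56.3 CPM in the SHP099 libraries of the same numbers. All 3 treated libraries lay above all 3 vehicle libraries, and culture 2 was the lowest in both groups. The mean went from 20.5 ± 3.39 to 51.4 ± 7.68 CPM (SD, n = 3), a log2 fold change of 1.33 ± 0.19 (edgeR adjusted p = 0.00161). Within cultures the ratio was 2.37, 2.54 and 2.62. In rank of log2 fold change, Fcer1a was number 36 from the top of 13270 genes, Fcer1g number 348 and Ms4a2 number 429.

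Ms4a2, the beta chain that amplifies the signal, was at 89.2, 72.1 and 94.9 CPM with vehicle and at 116, 117 and 139 CPM with SHP099. The lowest treated library was above the highest vehicle library. The mean rose from 85.4 ± 11.9 to 124 ± 13.4 CPM (SD, n = 3), a log2 fold change of 0.54 ± 0.12 (edgeR adjusted p = 0.0129). Within cultures the ratio was 1.30, 1.62 and 1.47.

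Fcer1g, the signalling chain shared with the activating IgG receptors, was at 124, 175 and 171 CPM with vehicle and at 213, 249 and 248 CPM with SHP099. The groups did not overlap, and replicate 1 was lowest in both. The mean rose from 157 ± 28.0 to 236 ± 20.03 CPM (SD, n = 3), a log2 fold change of 0.59 ± 0.12 (edgeR adjusted p = 0.00904). With a trend on transcript length and GC content removed per library and the replicate number as a block, it was 0.42, with an edgeR adjusted p of 0.0505. That block also joined WT libraries to mutant libraries of the same number, which share only the number. Without that block the change after trend removal stayed past the threshold.

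For the 4 IgG receptor genes the log2 fold changes with SHP099 lay between 0.21 and 0.34. Fcgr3, the low-affinity activating receptor gene, was at 214.1, 214 and 260 CPM with vehicle and at 263, 236 and 296 CPM with SHP099, and the groups overlapped (log2 fold change 0.21 ± 0.10; edgeR adjusted p = 0.16). Fcgr1, the high-affinity IgG receptor gene, was at 10.2, 15.4 and 14.4 CPM with vehicle and at 13.5, 16.1 and 17.0 CPM with SHP099, also with overlap (0.22 ± 0.20; adjusted p = 0.49). Fcgr4, an activating receptor for IgG2 subclasses, was at 6.16, 5.56 and 6.98 CPM with vehicle and at 8.08, 7.77 and 7.73 CPM with SHP099.
The Fcgr4 libraries did not overlap between the groups, but the log2 fold change of 0.34 ± 0.14 did not pass (edgeR adjusted p = 0.113). The inhibitory receptor gene Fcgr2b was at 147, 133 and 159.7 CPM with vehicle and at 166.0, 163 and 178 CPM with SHP099. Its libraries did not overlap either, and its log2 fold change was 0.21 ± 0.08 (edgeR adjusted p = 0.105). DESeq2 called Fcgr2b, at an adjusted p of 0.0488. Fcgr3 passed without mutant vehicle replicate 3 (log2 fold change 0.32, adjusted p = 0.0482) and Fcgr4 without WT replicate 3 (0.35, adjusted p = 0.0445).

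Vehicle and SHP099 libraries with equal numbers were paired by mutant culture, and each of the 7 genes was higher with SHP099 in 3 of 3 cultures. The share of all tested genes that were higher in 3 of 3 cultures was not counted. A block for culture within the mutant libraries, with WT cells kept in the fit, called 5 of 7 members higher, against 12.5% of tested genes: the 3 IgE receptor chains, Fcgr3 (adjusted p = 0.0203) and Fcgr2b (adjusted p = 0.0452). The same block with the 6 mutant libraries alone called 7 of 7 higher, against 21.5% of 13004 tested genes. Its edgeR adjusted p-values ran from 4.91e-18 for Fcer1a to 0.0115 for Fcgr1. With WT cells kept in the fit, the edgeR adjusted p was 0.000363 for Fcer1a and 0.314 for Fcgr1. The p-values thus depend strongly on the libraries in the fit. With only 3 pairs, those of the 6 libraries alone call for caution. Within-culture log2 changes were 1.25 to 1.39 for Fcer1a, 0.38 to 0.70 for Ms4a2, 0.51 to 0.78 for Fcer1g, and 0.07 to 0.48 over the 4 IgG receptor genes.

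**Figure D2:**
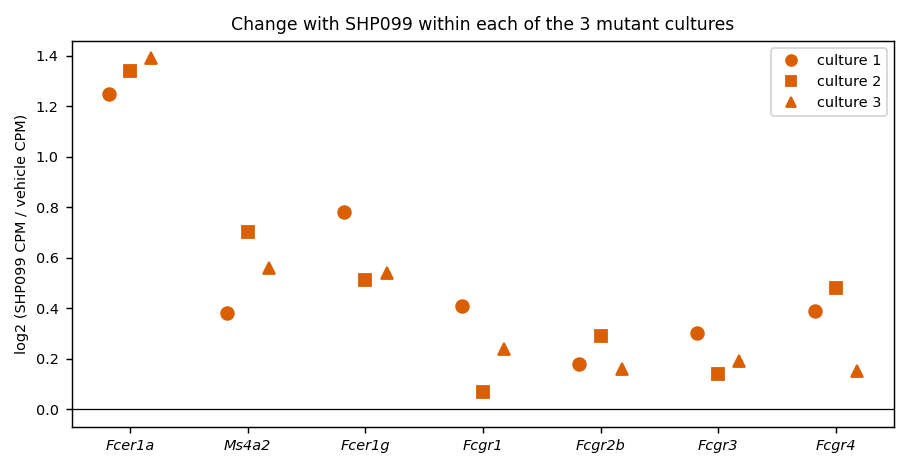
Change with SHP099 within each of the 3 mutant cultures, as log2 of the ratio of CPM in the SHP099 library to CPM in the vehicle library of the same number (y axis), for the 7 Fc receptor genes (x axis). Each point is 1 culture. All points lie above 0, those of Fcer1a between 1.25 and 1.39 and those of the IgG receptor genes between 0.07 and 0.48.

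In mutant vehicle cells the signalling chains of the IgE receptor and the activating receptor gene Fcgr4 were called lower than in WT vehicle cells, and the high-affinity IgG receptor gene Fcgr1 was called higher. The alpha chain gene Fcer1a had a log2 fold change of -0.49, beside -0.48 for Fcer1g and -0.42 for Ms4a2, but was not called. Fcer1g was 1.40-fold, Ms4a2 1.33-fold and Fcgr4 1.35-fold lower, and Fcgr1 was 1.76-fold higher. These counts, 3 of 7 members lower and 1 of 7 higher, stand beside 14.7% and 16.9% of all tested genes. The members' median log2 fold change was -0.42, beside 0.02 over all tested genes. This comparison shares the mutant vehicle libraries with that of SHP099, so the values of the 2 comparisons are not independent.

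Fcer1g was at 243, 210.5 and 203 CPM in WT replicates 1, 2 and 3, all above the 124 to 175 CPM of the mutant vehicle libraries. The log2 fold change was -0.48 ± 0.12 (edgeR adjusted p = 0.0164), and it was -0.40 with an adjusted p of 0.0565 without WT replicate 1, the highest WT library. Ms4a2 was at 100.2, 131 and 111 CPM in WT cells and at 72.1 to 94.9 CPM in mutant vehicle cells, with no overlap (-0.42 ± 0.12; adjusted p = 0.0284). Ms4a2 no longer passed without WT replicate 2 (-0.32, adjusted p = 0.0961), WT replicate 3 (0.0508), mutant vehicle replicate 1 (0.0518) or mutant vehicle replicate 2 (-0.32, 0.0777).
Fcer1a was at 28.7, 36.5 and 21.6 CPM in WT cells, which overlapped the 16.7 to 23.3 CPM of the mutant vehicle cells. Its log2 fold change was -0.49 ± 0.19 and did not pass (edgeR adjusted p = 0.0772). It passed by DESeq2 (adjusted p = 0.0187) and without WT replicate 3, the lowest WT library (-0.69, adjusted p = 0.0213).

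Fcgr1 was at 10, 7.23 and 5.60 CPM in WT cells, and the lowest mutant vehicle library, at 10.2 CPM, was just above the highest WT library. The log2 fold change was 0.82 ± 0.21 (edgeR adjusted p = 0.0169), number 231 from the top of 13270. It missed the threshold without WT replicate 2 (adjusted p = 0.061), WT replicate 3 (0.0563), mutant vehicle replicate 2 (0.0616) or mutant vehicle replicate 3 (0.059), with log2 fold changes of 0.61 to 0.77.
Fcgr4 was at 9.92, 8.52 and 6.75 CPM in WT cells, and the lowest of these was below the highest mutant vehicle library. Its log2 fold change was -0.43 ± 0.14 (edgeR adjusted p = 0.0416), and its adjusted p rose above 0.05 in 10 alternatives. Of those, 6 left out 1 library: WT replicate 1 (log2 fold change -0.29, adjusted p = 0.138), WT replicate 2 (0.0932), mutant vehicle replicate 1 (0.0928), mutant vehicle replicate 2 (0.115), SHP099 replicate 1 (0.0514) or SHP099 replicate 2 (0.053).

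The inhibitory receptor gene Fcgr2b was at 168, 139 and 142 CPM in WT cells and 147 ± 13.1 CPM in mutant vehicle cells (SD, n = 3), with a log2 fold change of -0.03 ± 0.08 (edgeR adjusted p = 0.809) that turned to 0.06 without WT replicate 1 and 0.02 without mutant vehicle replicate 2. Fcgr3 was at 282, 268 and 245 CPM in WT cells and 229 ± 26.6 CPM in mutant vehicle cells, with a log2 fold change of -0.21 ± 0.10 (adjusted p = 0.134). Without mutant vehicle replicate 3 it was -0.33, with an adjusted p of 0.0381.

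**Figure D3:**
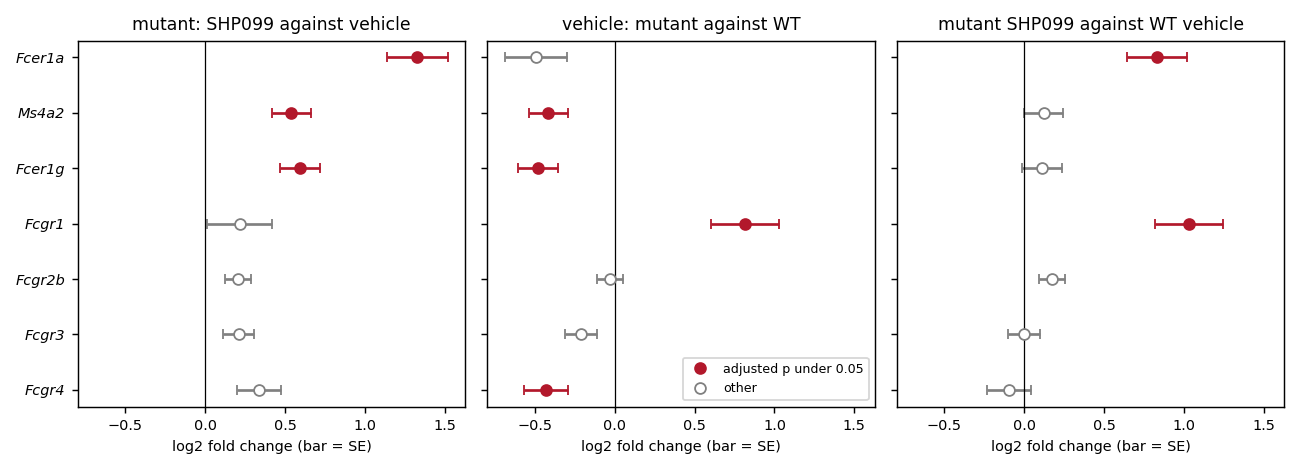
Log2 fold change (x axis) of the 7 Fc receptor genes in 3 comparisons: SHP099 with vehicle among mutant cells (left), mutant with WT among vehicle cells (middle), and treated mutant with WT vehicle cells (right). Points are edgeR estimates over all 9 libraries, bars are SE, and filled points have an adjusted p under 0.05. Fcer1a is filled at 1.33 in the first panel and 0.83 in the last, and Fcgr1 at 0.82 in the middle panel and 1.03 in the last.

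Set against WT vehicle cells, SHP099-treated mutant cells had more Fcer1a and more Fcgr1. They were the 2 of 7 members called higher, where 15.4% of tested genes were, and no member was called lower, against 16.3%; none was lower at an unadjusted p under 0.05 or by DESeq2. Fcer1a was 1.78-fold higher (51.4 against 28.9 CPM; log2 fold change 0.83 ± 0.19, edgeR adjusted p = 0.00939), with no overlap. Fcgr1 was 2.05-fold higher (15.6 against 7.61 CPM; 1.03 ± 0.21, adjusted p = 0.00618), also with no overlap. In the same comparison 13 of 22 monocyte and macrophage markers were higher (median 0.56; 8 without WT replicate 2), Irf8 among them at 50.6 against 17.5 CPM (1.52 ± 0.15, adjusted p = 0.000228), and their part in the Fcgr1 result was not tested. Of 21 mast cell and basophil markers 1, Cd63, was higher and 8 were lower (median -0.40). This comparison shares libraries with both others.
For Fcer1g the treated mean was 236 CPM and the WT mean 219 CPM (0.11 ± 0.12, edgeR adjusted p = 0.512). For Ms4a2 they were 124 and 114 CPM (0.12 ± 0.12, adjusted p = 0.464). With the length and GC trend removed these estimates were -0.01 for both genes. Fcgr3 averaged 265 CPM in both groups (adjusted p = 1.0).
Fcgr2b averaged 169 against 149.8 CPM (0.17 ± 0.08, edgeR adjusted p = 0.134), and without WT replicate 1 it passed (0.27, adjusted p = 0.0281). Fcgr4 averaged 7.86 against 8.40 CPM (-0.09 ± 0.14, adjusted p = 0.637), and without WT replicate 1 its estimate was 0.05.

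The balance of the receptor chains was followed within each library as ratios of counts per kilobase, which do not depend on library scaling. Exact two-sided permutation tests were used for 9 comparisons, and 3 libraries against 3 cannot give a p below 0.1. The ratio of Fcer1a to Ms4a2 was 0.69, 0.67 and 0.47 in WT cells, 0.63, 0.56 and 0.54 in mutant vehicle cells, and 1.14, 0.87 and 0.97 in SHP099-treated cells. Every treated library had a higher ratio than every other library, and the mean log2 ratio was 0.78 higher with SHP099 than with vehicle in mutant cells and 0.72 higher than in WT cells (exact permutation p = 0.1 for each). Mutant and WT vehicle cells differed by -0.06 (exact permutation p = 0.8).
The ratio of Fcer1g to Fcer1a was 11.5 ± 2.74 in WT cells (SD, n = 3), 11.5 ± 3.73 in mutant vehicle cells and 6.87 ± 1.5 in SHP099-treated cells. In the paired cultures 1, 2 and 3 it went from 7.80 to 5.64, from 15.3 to 8.54 and from 11.6 to 6.42, lower with SHP099 in 3 of 3. The groups overlapped, and without pairing the log2 differences were -0.72 with SHP099 against vehicle and -0.74 against WT (exact permutation p = 0.2 for each), and -0.02 for mutant against WT (exact permutation p = 1.0).
The share of inhibitory Fcgr2b in the summed counts per kilobase of the 4 IgG receptor genes was 17.7, 15.9 and 17.4% in WT cells, 19.8, 18.2 and 18.1% in mutant vehicle cells, and 18.5, 19.7 and 17.8% in SHP099-treated cells. All 6 mutant libraries had a larger share than all 3 WT libraries. The mean share was 1.72 percentage points higher in mutant vehicle than in WT cells and 1.65 points higher in treated than in WT cells (exact permutation p = 0.1 for each), and it differed by -0.07 points between SHP099 and vehicle (exact permutation p = 0.9). This share rests on Fcgr2b and Fcgr3, between which reads can be split.

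**Figure D4:**
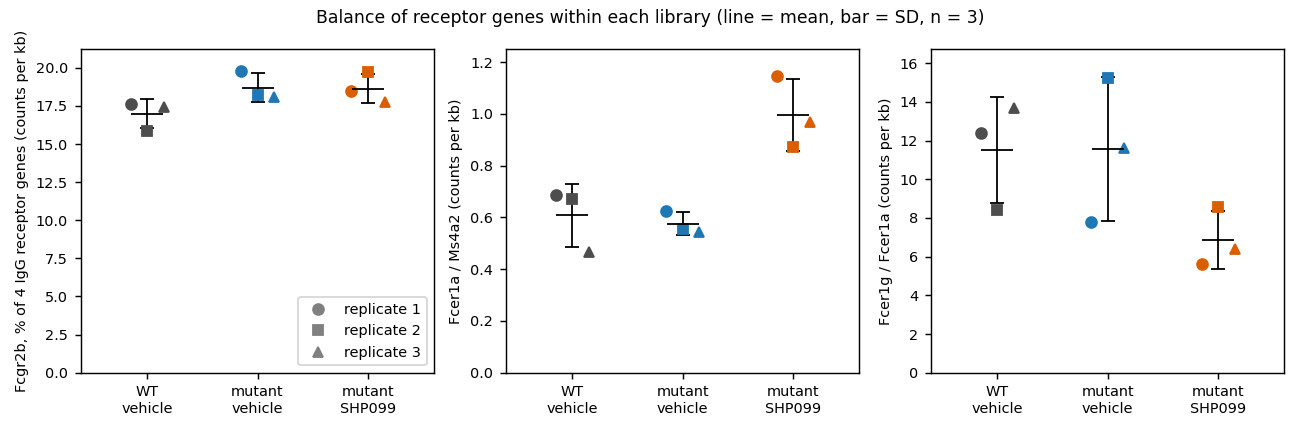
Ratios within each library, from counts per kilobase, in WT vehicle, mutant vehicle and mutant SHP099 cells: the share of Fcgr2b among the 4 IgG receptor genes in percent (left), Fcer1a over Ms4a2 (middle) and Fcer1g over Fcer1a (right). Points are libraries, lines are means and bars are SD. The 3 SHP099 libraries have Fcer1a to Ms4a2 ratios of 0.87 to 1.14, above the 0.47 to 0.69 of the other libraries.

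The other genes of the pathway are given as counts and medians over lists. Over all tested genes SHP099 raised 8.81% and lowered 13%. In mutant against WT vehicle cells 16.9% were higher and 14.7% lower. With SHP099 edgeR called none lower among the other Fc receptors, the gamma chain partners, the signalling genes, the other ITIM receptors, the mast cell and basophil markers or the monocyte and macrophage markers. At an unadjusted p under 0.05 these had 2 lower signalling genes and none of the others, and DESeq2 called none. Of 12 other Fc receptor genes, 4 were tested. SHP099 raised 1 of them, Fcgrt, the neonatal Fc receptor that recycles IgG, from 6.66 to 10.6 CPM (log2 fold change 0.66 ± 0.19, edgeR adjusted p = 0.0339), and the list's median was 0.14. In mutant against WT vehicle cells Fcrls, an Fc receptor-like gene, was the 1 of 4 called higher, at under 1 CPM in both groups, and it did not pass without WT replicate 2 or 3 or mutant vehicle replicate 1 (adjusted p up to 0.0685).
Receptors that signal through the gamma chain or a related adaptor, with these adaptors themselves, had 12 tested genes. Beside 8.81% of all tested genes, SHP099 raised 2 of the 12 (median 0.30). They were the adaptor genes Tyrobp (DAP12), from 230.2 to 332 CPM (0.53 ± 0.09, adjusted p = 0.00449), and Hcst (DAP10), from 10.8 to 14.3 CPM (0.41 ± 0.11, adjusted p = 0.0214). The calls of Fcgrt and Hcst were each lost in 4 of the 9 fits that left out 1 library: both without mutant vehicle replicate 1 or 3 or SHP099 replicate 3, Fcgrt also without SHP099 replicate 2 and Hcst without SHP099 replicate 1. Over all alternatives their adjusted p reached 0.107 and 0.0684. Against WT vehicle cells the mutant vehicle cells had 1 of 12 higher and 1 lower (median 0.10), beside 16.9% and 14.7% of all tested genes. Clec4d, a C-type lectin receptor that pairs with the gamma chain, was at 19.8 against 12.6 CPM (0.65 ± 0.16, edgeR adjusted p = 0.0122). Gp6, the collagen receptor of platelets, was at 12.99 against 27.1 CPM (-1.06 ± 0.21, edgeR adjusted p = 0.0053).

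Downstream of the receptors, 6 of 30 tested signalling genes rose with SHP099 (median 0.09), where 8.81% of all tested genes did, among them the adaptor genes Lat, Lat2 and Lcp2 and the calcium channel gene Orai1. With the block within mutant cultures 11 rose, beside 12.5% of all tested genes, and 1 fell. Lat went from 36.6 to 48.3 CPM (log2 fold change 0.40 ± 0.07, edgeR adjusted p = 0.0045) and Orai1 from 76.3 to 91.8 CPM (0.27 ± 0.05, adjusted p = 0.00663). Lcp2, which encodes SLP-76, went from 179 to 203 CPM (0.18 ± 0.04, adjusted p = 0.0141), and Lat2 from 55.0 to 66.3 CPM (0.27 ± 0.06, adjusted p = 0.0104), although Lat2 did not pass with the length and GC trend removed (adjusted p up to 0.0748).
In mutant vehicle cells 11 of the 30 were lower than in WT vehicle cells and 1 was higher (median -0.12), beside 14.7% and 16.9% of all tested genes. Lat was at 36.6 against 73.7 CPM (-1.01 ± 0.07, edgeR adjusted p = 7.8e-05), and the SRC-family kinase gene Fyn at 30.2 against 49.6 CPM (-0.72 ± 0.07, adjusted p = 0.000255). Lat2 (-0.53 ± 0.06, adjusted p = 0.000459) and Lcp2 (-0.33 ± 0.04, adjusted p = 0.000762) were lower too.
Syk, the kinase recruited by the ITAMs of Fcer1g, was at 344 CPM in mutant vehicle cells against 419 CPM in WT cells (-0.28 ± 0.05, edgeR adjusted p = 0.00204) and at 366 CPM with SHP099 (0.09 ± 0.05 against vehicle, adjusted p = 0.187). Lyn, which phosphorylates those motifs, was at 178 CPM in WT cells, 163 with vehicle and 184 with SHP099, and passed in neither comparison (adjusted p = 0.208 and 0.119).

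Among 20 negative regulators of Fc receptor signalling, SHP099 raised 1 and lowered 3 (median 0.02), beside 8.81% and 13% of all tested genes. The feedback inhibitor gene Socs1 rose from 18.3 to 23.9 CPM (log2 fold change 0.39 ± 0.09, edgeR adjusted p = 0.0119). The ubiquitin ligase gene Cbl fell from 137 to 93.7 CPM (-0.54 ± 0.09, adjusted p = 0.00297), the diacylglycerol kinase gene Dgkz from 290.3 to 238 CPM (-0.28 ± 0.05, adjusted p = 0.0027), and Ubash3a was the third. Between mutant and WT vehicle cells 11 of 20 were lower in the mutant (7 without mutant vehicle replicate 3) and none was higher (median -0.17); edgeR had 1 higher at an unadjusted p under 0.05 and DESeq2 called none. Over all tested genes 14.7% were lower and 16.9% higher.
Dok2, an adaptor that binds RasGAP, was at 63.9 against 102 CPM (-0.68 ± 0.05, edgeR adjusted p = 6.47e-05) and Ubash3b at 75.5 against 129 CPM (-0.77 ± 0.11, adjusted p = 0.00119). Of the phosphatases known to act with Fcgr2b, Inpp5d (SHIP1) was at 244 CPM in WT cells, 233 with vehicle and 224 with SHP099. It passed neither between mutant and WT vehicle cells nor with SHP099 (edgeR adjusted p = 0.14 and 0.206), but it was lower in treated than in WT cells (-0.12 ± 0.03, adjusted p = 0.0148). That call was lost without WT replicate 2 and with the length and GC trend removed (adjusted p up to 0.317). None of the 3 comparisons called Ptpn6 (SHP1), at 377, 378 and 414 CPM in the same order of groups (edgeR adjusted p = 0.985 for mutant against WT vehicle, 0.326 for SHP099 and 0.274 for treated against WT).
Ptpn11, which encodes the target of SHP099, averaged 295 CPM in vehicle and 299 CPM in treated cells (0.02 ± 0.08, edgeR adjusted p = 0.874). It was lower in mutant vehicle than in WT cells, at 353 CPM in the latter (-0.26 ± 0.08, adjusted p = 0.0328), a call lost without WT replicate 1 or 3 or mutant vehicle replicate 1 or 3 (adjusted p up to 0.105 over the alternatives).

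Other inhibitory receptors with ITIMs numbered 21 tested genes, of which 6 were higher with SHP099 (3 without mutant vehicle replicate 1 or SHP099 replicate 3; median 0.27), and 11 with the block within mutant cultures, beside 8.81% and 12.5% of all tested genes. Cd300a rose from 68.5 to 87.1 CPM (log2 fold change 0.34 ± 0.06, edgeR adjusted p = 0.00294), Clec4a2 from 44.4 to 60.5 CPM (0.45 ± 0.09, adjusted p = 0.00871) and the collagen receptor gene Lair1 from 48.9 to 61.5 CPM (0.33 ± 0.07, adjusted p = 0.0118). Compared with WT, mutant vehicle cells had 2 higher and 4 lower (median -0.15), with 1 lower without WT replicate 1 or mutant vehicle replicate 1 and 2 lower without mutant vehicle replicate 3. The shares over all tested genes were 16.9% higher and 14.7% lower. Milr1, an inhibitory receptor known from mast cells, was at 38.0 against 22.7 CPM (0.74 ± 0.14, adjusted p = 0.00337).

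Of 15 genes for factors reported at the promoters of the IgE receptor genes, SHP099 lowered 2, a share near the 13% of all tested genes (1 when any of the 6 mutant libraries was left out) and edgeR called none higher (2 at an unadjusted p under 0.05, and 2 called by DESeq2; median 0.06). Pou2f1 fell from 30.5 to 22.3 CPM (log2 fold change -0.45 ± 0.06, adjusted p = 0.00159), but did not pass with the length and GC trend removed (adjusted p up to 0.0862), and Yy1 was the other. Gata1 averaged 43.3 CPM with vehicle and reached 54.3 CPM with SHP099 (0.33 ± 0.12, adjusted p = 0.0793), and Gata2 at 188 and 209.8 CPM (adjusted p = 0.397).
In mutant against WT vehicle cells 4 of the 15 were lower and 1 was higher (median -0.09), beside 14.7% and 16.9% of all tested genes. Gata1 was at 43.3 against 86.6 CPM (-1.001 ± 0.12, edgeR adjusted p = 0.000599), its cofactor gene Zfpm1 at 67.0 against 139 CPM (-1.05 ± 0.18, adjusted p = 0.00305) and Gata2 at 188 against 287 CPM (-0.61 ± 0.12, adjusted p = 0.00544). Fhl3 was the other that was lower. Markers of other lineages moved in the same comparison, and their part in these results was not tested. Of 11 megakaryocyte markers 11 were lower (median -1.13), with a summed level of 1826 to 2532 CPM in mutant vehicle against 4084 to 5169 in WT cells. Of 8 tested erythroid markers 7 were lower and 1, Tfrc, was higher (median -1.53). Only 4 erythroid markers were lower without WT replicate 3, mutant vehicle replicate 1 or mutant vehicle replicate 3. Of 9 tested eosinophil markers 3 were lower and 1 higher, with a summed level of 237 to 300 CPM against 569 to 642. Spi1, which encodes PU.1, averaged 309 CPM in vehicle and 350.0 CPM in treated cells (0.18 ± 0.07, adjusted p = 0.0917).

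Markers of the cell types that carry these receptors moved as well, and their part in the results for the receptor genes was not tested. Of 21 tested mast cell and basophil markers, 6 rose with SHP099 (median 0.29), and 12 of 21 did with the block within mutant cultures, beside 8.81% and 12.5% of all tested genes. Mcpt2 rose from 12.2 to 42.9 CPM (log2 fold change 1.83 ± 0.33, edgeR adjusted p = 0.00434), Cpa3 from 417 to 711 CPM (0.77 ± 0.11, adjusted p = 0.00183) and Cd63 from 335 to 482 CPM (0.53 ± 0.08, adjusted p = 0.00222). Of the same 21, 15 were lower in mutant than in WT vehicle cells (median -0.79), beside 14.7% of all tested genes, Cpa3 among them at 417 against 777 CPM (-0.90 ± 0.11, adjusted p = 0.000762).
The summed level of the list's 23 markers was 4046 to 4539 CPM in WT cells, 2385 to 2982 in mutant vehicle cells and 3137 to 3837 in treated cells. Mrgprb2 and Rgs13 were under 1 CPM in every library, and no marker was at 0 throughout.
None of these markers was higher in mutant than in WT vehicle cells by edgeR, at an unadjusted p under 0.05 or by DESeq2.

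Monocyte and macrophage markers, the cells in which Fcgr1 and Fcgr4 are best known, had 4 of 22 higher with SHP099 (median 0.38), and 8 of 22 with the block within mutant cultures, beside 8.81% and 12.5% of all tested genes. Ly6c2 went from 754 to 1148 CPM (log2 fold change 0.61 ± 0.09, edgeR adjusted p = 0.00222). In mutant against WT vehicle cells 6 of 22 were higher and 2 lower (median 0.26), beside 16.9% and 14.7% of all tested genes. Only 3 were higher without WT replicate 2 or mutant vehicle replicate 2 or 3, and 2 without WT replicate 3. The call of Fcgr1 was lost without the same libraries, but calls over all tested genes fell there too. Over all tested genes 2248 were higher, and 1370 without WT replicate 2 and 1541 without WT replicate 3. Without mutant vehicle replicate 2 or 3 they were 1564 and 1351, and without WT or mutant vehicle replicate 1 they were 1860 and 1979. Irf8 was at 40.4 against 17.5 CPM (1.20 ± 0.14, adjusted p = 0.000622) and Mpeg1 at 226 against 129 CPM (0.82 ± 0.18, adjusted p = 0.00852). The 2 called lower were Lyz2 and Cx3cr1, the latter at 2.44 against 4.08 CPM.
The 22 markers summed to 3505 to 4551 CPM in WT cells, 2906 to 4011 in mutant vehicle cells and 4901 to 5699 in treated cells, with none at 0 in all libraries. The 16 measured neutrophil markers, cells that carry Fcgr3 and Fcgr4, summed to 35933 to 45789, 31403 to 37218 and 39932 to 47973 CPM in the same order. With SHP099 4 of the 16 were called higher and none lower (median 0.35), beside 8.81% and 13% of all tested genes. In mutant against WT vehicle cells 1 was higher and 7 were lower (median -0.37), beside 16.9% and 14.7%.
B cells carry Fcgr2b, and 6 of 7 measured B cell markers were under 1 CPM in every library, with Pax5 at 0. NK cells carry Fcgr3, and 8 of 11 measured T and NK cell markers were under 1 CPM in every library, Ncr1 and Klrb1c among them. The list summed to 344 to 471 CPM in WT cells, 201 to 243 in mutant vehicle cells and 272 to 325 in treated cells. Of its 5 tested genes, SHP099 raised Nkg7 from 109 to 168 CPM (0.63 ± 0.04, edgeR adjusted p = 0.000176), and in mutant against WT vehicle cells the granzyme gene Gzmb was lower (104 against 288 CPM; -1.47 ± 0.20, adjusted p = 0.000953) and Lck higher.

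The genes most like each called member were sought among 9762 others by the root mean square difference of log2 CPM, centred on each gene's mean, over the 9 libraries. Nearest to Fcer1a were Myl10 (0.28), Maob (0.28) and Dennd2a (0.31), where the spread of Fcer1a about its own mean was 0.60 and the difference from Ms4a2 was 0.40. Nearest to Ms4a2 were Cyp11a1 (0.11), a steroid-synthesis gene, Slc18a2 (0.11), the vesicular monoamine transporter that loads mast cell granules, and Tusc1 (0.14).
Nearest to Fcer1g were Slc9a9 (0.09), Map1lc3a (0.10) and Fpr1 (0.10), a formyl peptide receptor of phagocytes. Nearest to Fcgr1 were Mpeg1 (0.12), the macrophage perforin, Ctsc (0.13) and Tgfbi (0.14). Nearest to Fcgr4 were Tesk2, Plaur and Mocos, each at 0.09 where the spread of Fcgr4 about its own mean was 0.24. These distances share the 9 libraries and describe them alone.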

How the data were processed

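Total RNA of 9 samples was made into stranded TruSeq mRNA libraries, per the labels' protocols. The table holds raw counts per gene symbol as deposited by the authors. Per the submitters' processing notes the tools were STAR, featureCounts (Subread) and FastQC and the build was mm10, and the sources used here do not give an annotation release or strand setting. The column for SHP099 replicate 3 ends in another character than the sample's title and was assigned to it as the one sample of that genotype, number and treatment.

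The counts were filtered with filterByExpr (minimum count 10), scaled by TMM and fitted with edgeR 4.0.16 in R 4.3.3. The quasi-likelihood model had 1 mean for each group over 9 libraries, with Benjamini-Hochberg adjustment over 13270 genes in each of 3 contrasts and a two-sided threshold of 0.05. The scripts were tested on simulated data. Levels per kilobase used the longest coding transcript of GENCODE M21 (GRCm38, the same assembly as mm10), and 23375 of 24421 symbols had a length. Promoters came from RefSeq (GRCm38.p6) and matched 7 of 7 members.

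Mutant cultures came from individual mice. For WT the labels name none, so the p-values reflect the spread among the samples alone, which may be technical. No replicates were alike within sampling noise (chi-square over its degrees of freedom, 11.1 to 116). The pairs with SHP099 replicate 3 were at 116 and 113, and all other pairs were at 11.1 to 25.8. Across genes, deviations from the group mean in vehicle and SHP099 libraries with equal numbers correlated at 0.54, 0.6 and 0.56 in mutant cells, so the numbers pair them. WT libraries and mutant libraries share only a number, with correlations of -0.13 to -0.05.

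The members and the gene lists were chosen with earlier results of these data known. All members were named, with up to 4 called genes of the smallest p per list, Ptpn11, Inpp5d, Ptpn6, Lyn and Syk, and the 3 genes of most like pattern. Some genes that this rule takes are left out, and Spi1, and Gata1 and Gata2 under SHP099, were chosen after their values were seen. Alternatives were DESeq2 size factors in edgeR, DESeq2 1.42.0, no filter, at least 1 CPM in 3 libraries, leaving out 1 library at a time, the replicate block, the compared groups alone, and a length and GC trend (lowess span 0.3) removed. The 2 blocks within mutant cultures were chosen after seeing the data.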

Additional observations from a re-analysis of the deposited data

How the results depend on the processing

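The 3 IgE receptor genes kept their SHP099 calls in every alternative run, except Fcer1g with the length and GC trend removed and the replicate block. The number of Fc receptor genes called higher with SHP099, 3, was 5 with the replicate block within mutant cultures and 7 with the replicate block in the 6 mutant libraries alone, and 3 to 4 when 1 library was left out. The paired fit of those 6 libraries called 2791 genes higher and 2772 lower, where the unpaired fit of the same 6 called 1114 and 1636 and that of all 9 called 1169 and 1721. The last 2 counts were 673 to 1354 and 1090 to 1759 with 1 library left out. In mutant against WT vehicle cells, 0 to 1 Fc receptor genes were higher and 1 to 4 lower with 1 library left out. The 2248 genes called higher there were 1432 with the compared groups alone and 1351 to 1979 with 1 library left out, and the 2045 called higher in treated against WT cells were 1080 to 2181. The cause of these shifts was not tested.

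Estimates near 0 changed sign. With 1 library left out, the SHP099 difference in the Fcgr2b share ran from -0.594 to 0.486 percentage points, and the mutant against WT log2 difference ran from -0.239 to 0.037 for Fcer1a to Ms4a2 and from -0.244 to 0.24 for Fcer1g to Fcer1a. Fcgr2b in mutant against WT ran from -0.112 to 0.061 with 1 library left out, and was 0.061 and 0.019 without WT replicate 1 and mutant vehicle replicate 2. In treated mutant against WT, Ms4a2 was -0.007 and -0.01 and Fcer1g -0.009 and -0.017 with the length and GC trend removed, without and with the replicate block. In the same comparison Fcgr3 was 0.012 with no filter and -0.106 to 0.074 with 1 library left out, and Fcgr4 was -0.237 to 0.049. The cause was not tested. Fcgr1 and Fcgr4 had the lowest levels of the 7 genes, and the part of their level in their precision was not tested. With SHP099 against vehicle the standard error of the log2 fold change was 0.20 for Fcgr1, 0.14 for Fcgr4 and 0.19 for Fcer1a. It was 0.08 to 0.12 for the other genes.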
